A study of Caenorhabditis elegans with 6 samples.

Results

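The genes of the endoplasmic reticulum (ER) unfolded protein response (UPR) described here are xbp-1, ire-1, pek-1, atf-6, hsp-3, hsp-4, pdi-1, pdi-2, crt-1 and ckb-2 of the nematode Caenorhabditis elegans, taken by name as sensors, transcription factors, chaperones and targets of the response. All 10 were among the 22010 genes listed, and all 10 had enough counts to be tested. RNA was sequenced from whole L4 larvae, the last larval stage, in 3 libraries of the WT strain and 3 of pals-25(icb98) mutants, grown at 20°C on E. coli OP50. The labels give the WT strain as N2 with icbIs4. This integrated transgene holds GFP under the promoter of chil-27 and mCherry under that of col-12. The icb98 allele was isolated in the icbIs4 background after mutagenesis with EMS. The allele introduces an early stop near the end of the PALS-25 protein and is described by the study as a gain of function, which turns on genes of pathogen responses in animals that are not infected. The labels call the replicates biological, and all of the mutant libraries come from a single allele.

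The UPR is the set of signals by which a cell adjusts the folding capacity of its ER. The sensors IRE-1, PEK-1 (the worm PERK) and ATF-6 sit in the ER membrane. Active IRE-1 removes a short intron from the xbp-1 mRNA, and the protein made from the spliced mRNA is a transcription factor that raises chaperone genes, PEK-1 lowers translation by phosphorylating the initiation factor eIF2alpha, and ATF-6 is a membrane-bound transcription factor. Among their known targets, hsp-4, a BiP chaperone, is the gene most often used in worms to follow the response, while its close relative hsp-3 is the abundant BiP of unstressed animals.

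In pals-25(icb98) mutants, 3 of the 10 genes were higher and 1 was lower than in WT. The transcription factor gene xbp-1 rose 1.54-fold, the BiP gene hsp-4 rose 1.40-fold and the choline kinase gene ckb-2 rose 1.58-fold, while pdi-2, which encodes a protein disulfide isomerase, was 0.659 times its WT level. The sensor genes ire-1, pek-1 and atf-6, the second BiP gene hsp-3, pdi-1 and the calreticulin gene crt-1 did not pass the test, which was edgeR's quasi-likelihood F-test with Benjamini-Hochberg adjustment over 16166 genes and a threshold of 0.05. Of all genes tested, 20.5% passed it, 9.80% higher and 10.7% lower in the mutant, beside 4 of the 10 members. The median log2 difference (mutant minus WT) was 0.03 over the 10 genes and 0.01 over all genes tested.

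One library stood apart from the rest. WT replicate 2 differed by more than 2-fold from WT replicates 1 and 3 at 2960 and 2658 genes, whereas the other pairs within a genotype differed at 230 to 280 genes, and it was the highest or lowest of the 6 libraries for 65.3% of genes and for 9 of the 10 members. Without it, 37.4% of genes were called (19.3% higher and 18.1% lower). Results for the 10 genes are therefore given with and without that library. As a check of the labels, chil-27, a chitinase-like gene of the oomycete response, had 0.132 ± 0.0866 CPM (gene counts divided by the scaled size of the library) in WT and 36.6 ± 3.37 CPM in the mutant (SD, n = 3 each). The libraries held between 40709626 and 47297002 estimated counts, and markers of the epidermis, intestine, pharynx, body wall muscle, neurons and germline were present in all 6, with differences between genotypes that are given with the molting genes. In whole animals, a change in the number of cells that express a gene and a change of RNA per cell cannot be told apart.

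Levels were first compared between genes in TPM, which divides estimated counts by effective transcript length and scales them to the same total in each library. In WT, crt-1 was the most abundant member at 1848 ± 279 TPM (SD, n = 3), followed by pdi-2 at 1679 ± 327, and these neighbours did not differ beyond their spread. Next came hsp-3 at 585 ± 89.1 TPM, pdi-1 at 387 ± 31.8, hsp-4 at 209 ± 28.9 and xbp-1 at 153 ± 12.02, each with libraries that did not overlap those of its neighbours. The sensors and ckb-2 were far below the chaperones, with ire-1 at 19.8 ± 0.163 TPM, ckb-2 at 7.66 ± 1.83, pek-1 at 7.53 ± 1.07 and atf-6 at 5.73 ± 1.12, and the last 3 of these overlapped one another. The order of the means was the same in the mutant, where crt-1 stood at 1823 ± 25.6 TPM, pdi-2 at 1095 ± 81.8 and hsp-4 at 291 ± 7.66.

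**Figure D1:**
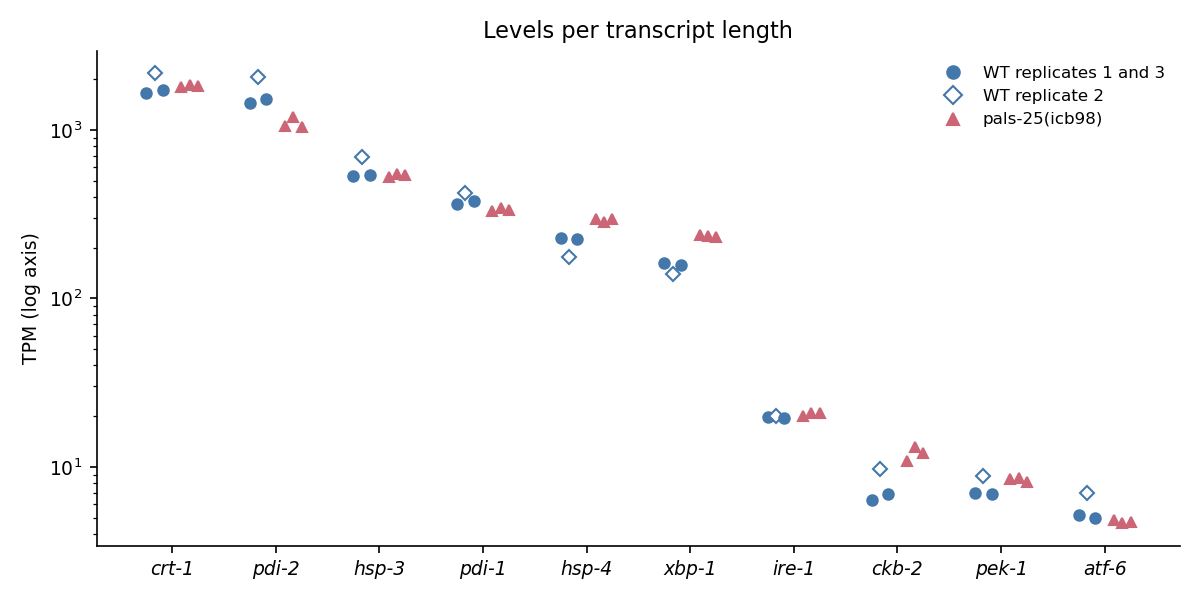
TPM on a log axis for each of the 10 genes, ordered by their WT mean, with WT replicates 1 and 3 as filled circles, WT replicate 2 as open diamonds and pals-25(icb98) libraries as triangles. Chaperone genes and xbp-1 lie above 100 TPM and the sensors and ckb-2 near or under 20 TPM. The triangles are above all WT libraries for xbp-1, hsp-4, ckb-2 and ire-1 and below them for pdi-2, pdi-1 and atf-6.

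Among the sensors and the transcription factor, xbp-1 (R74.3, chromosome III, 4193809 to 4195358, plus strand, Ensembl WBcel235) was the gene with the smallest p. It had 239, 201 and 232 CPM in WT replicates 1 to 3 and 356, 341 and 340 CPM in mutant replicates 1 to 3. Every mutant library was above every WT library, and WT replicate 2 was the lowest of the 6. The mean rose from 224 ± 20.3 to 346 ± 8.98 CPM, a log2 difference of 0.63 (SE 0.07, edgeR adjusted p = 0.00411). The call held with each library left out in turn (highest edgeR adjusted p 0.0285), and without WT replicate 2 the log2 difference was 0.55.

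The sensor gene ire-1 (C41C4.4, chromosome II, 8112243 to 8124910, minus strand), whose kinase and ribonuclease acts on xbp-1, had 70.5, 70.0 and 70.6 CPM in WT and 73.9, 72.4 and 74.9 CPM in the mutant. The mutant libraries were all above the WT libraries, but by little. The log2 difference of 0.07 (SE 0.04) did not pass the test (edgeR adjusted p = 0.283), with or without WT replicate 2. The annotated span of the gene, introns included, shares 6456 bases with that of unc-105 on the opposite strand. The listed ire-1 transcripts have 3382 and 2637 bases, and how much of the shared stretch is transcript sequence was not examined. The strand setting of the counting is not given in the sources used here.

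The kinase gene pek-1 (F46C3.1, chromosome X, 11410176 to 11414887, minus strand) had 28.2, 34.9 and 28.1 CPM in WT and 34.9, 34.6 and 33.4 CPM in the mutant. WT replicate 2 lay just above the highest mutant library, and WT replicates 1 and 3 lay below all 3 mutant libraries. The log2 difference was 0.17 (SE 0.10, edgeR adjusted p = 0.262) over the 6 libraries, and without WT replicate 2 it was 0.28 (SE 0.06) and passed (edgeR adjusted p = 0.00267).

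The sensor gene atf-6 (F45E6.2, chromosome X, 12480948 to 12484904, plus strand) had 13.3, 17.7 and 12.9 CPM in WT and 12.7, 11.7 and 12.2 CPM in the mutant. The mutant libraries lay just below the lowest WT library, and WT replicate 2 was the highest of the 6. The log2 difference was -0.26 (SE 0.14, edgeR adjusted p = 0.245), or -0.11 without WT replicate 2, and passed in neither case.

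**Figure D2:**
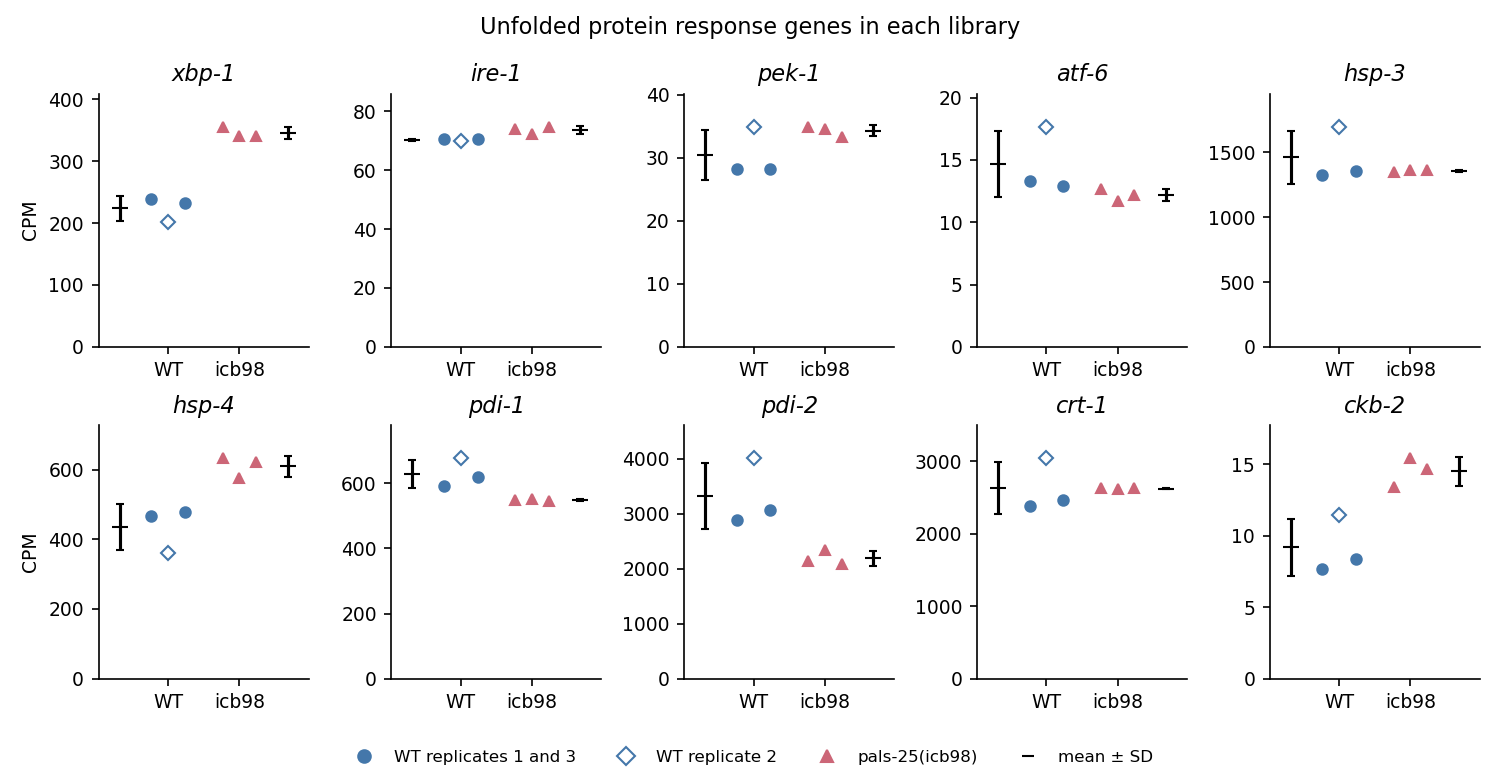
CPM of each gene in each library, 1 panel a gene with the vertical axis starting at 0, with WT replicates 1 and 3 as filled circles, WT replicate 2 as open diamonds, pals-25(icb98) libraries as triangles and the mean ± SD of each group (n = 3) beside its points. The groups do not overlap for 7 genes, beside 49.3% of all genes tested. These are xbp-1, hsp-4, pdi-2 and ckb-2 and, by less, ire-1, atf-6 and pdi-1. WT replicate 2 lies away from the other WT libraries for every gene but ire-1.

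The xbp-1 gene was listed with several transcripts. R74.3b has 1446 bases and R74.3a has 1423, so that they differ by 23 bases, which is the length of the intron that IRE-1 is known to remove in worms. Their sequences were not compared here, so which of them stands for the spliced mRNA is not asserted. R74.3b had 220, 187 and 215 CPM in WT and 326, 311 and 312 CPM in the mutant. R74.3a had 19.4, 14.4 and 17.4 CPM in WT and 29.8, 29.6 and 28.6 CPM in the mutant. In both transcripts every mutant library exceeded every WT library, with log2 differences of 0.62 (SE 0.08, edgeR adjusted p = 0.0157) for R74.3b and 0.79 (SE 0.13, edgeR adjusted p = 0.0289) for R74.3a. They were 0.54 and 0.67 without WT replicate 2, and both passed (edgeR adjusted p = 0.00714 and 0.0151). The remaining transcript, R74.3c, had too few counts to be tested.

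The share of R74.3a in the xbp-1 counts asks whether the balance of the transcripts changed beside the total. It was 8.11%, 7.16% and 7.48% in WT, with 95% Wilson intervals of 7.63% to 8.63%, 6.62% to 7.73% and 6.98% to 8.04%. In the mutant it was 8.38%, 8.68% and 8.40%, with intervals of 7.95% to 8.83%, 8.24% to 9.14% and 7.97% to 8.85%. The mutant shares were all above the WT shares, but the interval of WT replicate 1 covered 2 of the mutant values. The intervals treat estimated counts as if each read had been seen to come from a given transcript. Reads that match both transcripts were divided by estimation. The error of that division and the spread between libraries are left out, so the intervals are too narrow. The mean share was 0.903 percentage points higher in the mutant (two-sided exact permutation p = 0.1, the smallest that 3 libraries against 3 can give, adjusted p = 0.44 over the 22 transcript shares tested in this way), and 0.691 points higher without WT replicate 2. The longer transcript, R74.3b, held 91.1% to 92.8% of the counts in every library.

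**Figure D3:**
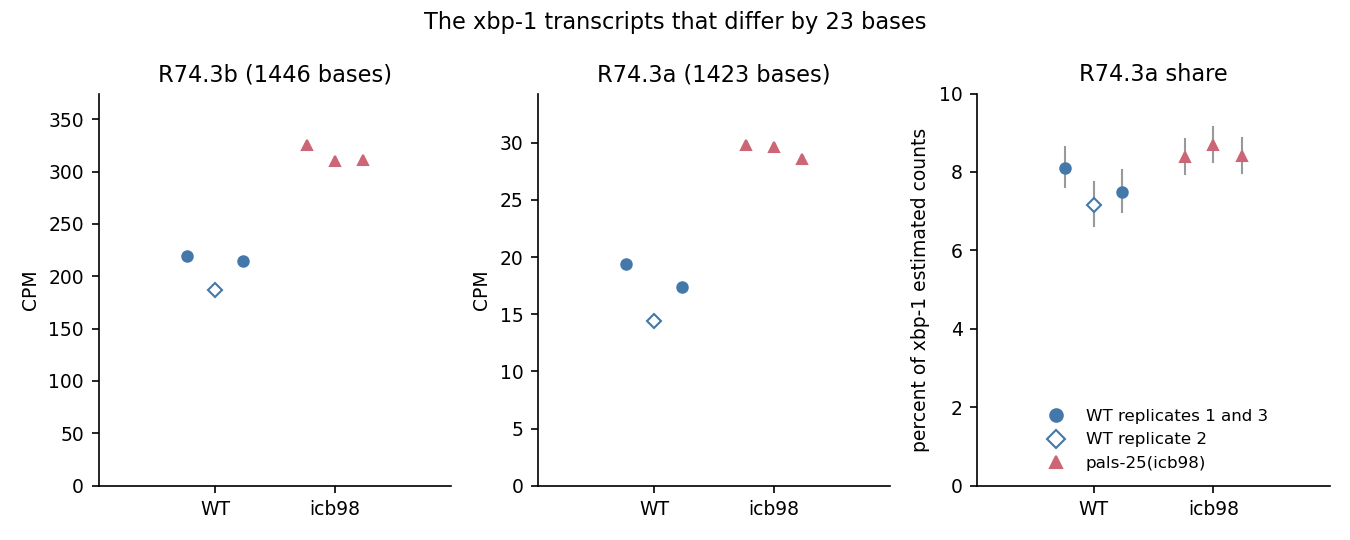
CPM of R74.3b and R74.3a, and the percent of the xbp-1 estimated counts assigned to R74.3a, in each library with symbols as in the plot of CPM by library. Vertical lines on the share are 95% Wilson intervals of the estimated counts, which leave out the error of dividing reads between transcripts. Both transcripts are higher in all 3 mutant libraries while the share lies between 7.16% and 8.68% in all 6.

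Of the 30 listed transcripts of the 10 genes, 23 were tested and 3 were called higher, beside 6.12% of all 24607 transcripts tested (3.68% higher and 2.43% lower). These were the xbp-1 transcripts above and F43E2.8a.2, the main transcript of hsp-4, with a log2 difference of 0.51 (SE 0.09, edgeR adjusted p = 0.0330), or 0.43 without WT replicate 2 (edgeR adjusted p = 0.0247). With each of the mutant replicates or WT replicate 3 left out all 3 lost the call, as did R74.3a and F43E2.8a.2 without WT replicate 1 (highest edgeR adjusted p 0.133). None was called lower by edgeR, where 2 had an unadjusted p under 0.05, while DESeq2 called 2 lower and limma-voom 0. A minor crt-1 transcript, Y38A10A.5.2, which has 11 bases fewer than the main one, had 30.1, 537 and 30.6 estimated counts in the WT libraries, against 732, 2014 and 1210 in the mutant libraries. The groups did not overlap, but the log2 difference of 2.65 did not pass (SE 1.27, edgeR adjusted p = 0.286), and without WT replicate 2 the adjusted p was 0.0154.

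The BiP chaperones, which hold unfolded chains in the ER, did not move together. The gene hsp-4 (F43E2.8, chromosome II, 7350112 to 7352645, minus strand) had 468, 360 and 479 CPM in WT and 633, 576 and 621 CPM in the mutant. Every mutant library was above every WT library, and WT replicate 2 was the lowest of the 6. The mean rose from 435 ± 65.9 to 610 ± 30.1 CPM, a log2 difference of 0.49 (SE 0.12, edgeR adjusted p = 0.0367). It was 0.37 without WT replicate 2 (edgeR adjusted p = 0.000169). The call did not hold when WT replicate 1 (0.0581), WT replicate 3 (0.0586) or mutant replicate 1, 2 or 3 (0.127, 0.0826 and 0.117) was the library left out.

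The gene hsp-3 (C15H9.6, chromosome X, 6089028 to 6092124, minus strand) had 1325, 1700 and 1360 CPM in WT and 1351, 1364 and 1366 CPM in the mutant. The mutant libraries lay close to WT replicates 1 and 3, and only WT replicate 2 was far from the rest. The log2 difference was -0.10 (SE 0.10, edgeR adjusted p = 0.481), and 0.02 without WT replicate 2. The proteins encoded by hsp-3 and hsp-4 are close relatives, and reads that match both genes were divided between them by the authors' estimation.

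Of the summed TPM of both BiP genes, hsp-4 held 30.0%, 20.3% and 29.4% in WT and 35.9%, 34.0% and 35.4% in the mutant. The groups did not overlap, and the mean moved from 26.6% ± 5.42 to 35.1% ± 1.03 (SD, n = 3 each). This is a difference of 8.55 percentage points (two-sided exact permutation p = 0.1, the smallest possible here), and 5.42 points without WT replicate 2. In each library hsp-3 remained the more abundant of the pair.

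The protein disulfide isomerases, which form and exchange disulfide bonds in secreted proteins, were lower or not called. The gene pdi-2 (C07A12.4, chromosome X, 4524155 to 4526536, plus strand) had 2886, 4006 and 3067 CPM in WT and 2146, 2335 and 2077 CPM in the mutant. Every mutant library was below every WT library, and WT replicate 2 was the highest of the 6. The mean fell from 3319 ± 601 to 2186 ± 133 CPM, a log2 difference of -0.60 (SE 0.13, edgeR adjusted p = 0.0279). It was -0.45 without WT replicate 2 (edgeR adjusted p = 8.52e-05). The call did not hold when WT replicate 3 (0.0603) or mutant replicate 1, 2 or 3 (0.115, 0.0731 and 0.109) was the library left out.

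PDI-2 is also a subunit of the collagen prolyl 4-hydroxylase, the ER enzyme that modifies cuticle collagens, together with DPY-18 and PHY-2. These partner genes were looked up after the values of pdi-2 were seen. The gene phy-2 had 93.2, 164 and 103 CPM in WT and 46.6, 58.5 and 45.8 CPM in the mutant, and dpy-18 had 260, 296 and 265 CPM in WT and 223, 224 and 204 CPM in the mutant. In both genes the mutant libraries were all below the WT libraries and WT replicate 2 was the highest, as for pdi-2. The log2 differences were -1.25 for phy-2 (SE 0.24, edgeR adjusted p = 0.0184) and -0.34 for dpy-18 (SE 0.07, edgeR adjusted p = 0.0223), and -0.97 and -0.28 without WT replicate 2. Both calls were lost with any mutant library left out, and that of dpy-18 also without WT replicate 3 (highest edgeR adjusted p 0.0896).

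The second isomerase gene, pdi-1 (C14B1.1, chromosome III, 3699739 to 3701461, minus strand), had 590, 677 and 619 CPM in WT and 550, 552 and 547 CPM in the mutant. The mutant libraries were close to one another and all below the WT libraries. The log2 difference of -0.19 (SE 0.06) just missed the threshold (edgeR adjusted p = 0.0597), and without WT replicate 2 it was -0.14 and passed (edgeR adjusted p = 0.0237).

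The gene crt-1 (Y38A10A.5, chromosome V, 6098992 to 6100542, minus strand), which encodes the calcium-binding chaperone calreticulin, had 2378, 3039 and 2467 CPM in WT and 2624, 2610 and 2625 CPM in the mutant. The mutant libraries fell between WT replicate 3 and WT replicate 2. The log2 difference was -0.0046 (SE 0.10, edgeR adjusted p = 0.978). Without WT replicate 2 it changed sign to 0.11 (SE 0.04) and passed (edgeR adjusted p = 0.0425).

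The gene ckb-2 (B0285.9, chromosome III, 4367949 to 4370160, plus strand) encodes a choline kinase, the first enzyme of the route from choline to phosphatidylcholine, the main lipid of ER membranes. It had 7.71, 11.4 and 8.41 CPM in WT and 13.4, 15.4 and 14.7 CPM in the mutant. Every mutant library was above every WT library, and here WT replicate 2 was the closest to the mutant. The mean rose from 9.19 ± 1.98 to 14.5 ± 1.003 CPM, a log2 difference of 0.66 (SE 0.17, edgeR adjusted p = 0.0417). It was 0.85 without WT replicate 2 (edgeR adjusted p = 4.63e-05). The call did not hold when WT replicate 1 (0.0953), WT replicate 3 (0.120) or mutant replicate 1, 2 or 3 (0.117, 0.132 and 0.133) was the library left out. The annotated span of the gene, introns included, shares 299 bases with srpr-1.2, an RNA gene on the same strand.

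Over the 10 genes, the libraries of the genotypes did not overlap for 7, beside 49.3% of all genes tested. Without WT replicate 2, the members called higher were 5 (xbp-1, hsp-4, ckb-2, pek-1 and crt-1) and those called lower were 2 (pdi-2 and pdi-1), beside 37.4% of all genes. For the 4 genes called with 6 libraries, the direction was the same with any library left out.

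**Figure D4:**
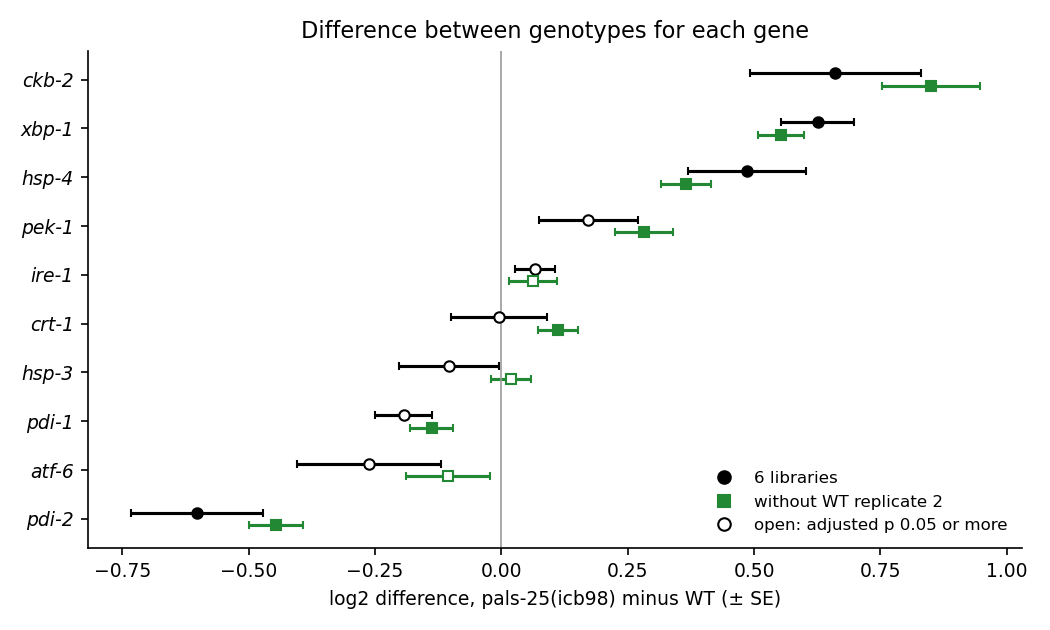
Log2 difference (pals-25(icb98) minus WT) with its standard error for each gene, over 6 libraries (circles) and without WT replicate 2 (squares), filled where the edgeR adjusted p was under 0.05. The values run from -0.60 for pdi-2 to 0.66 for ckb-2, the filled symbols number 4 with 6 libraries and 7 without WT replicate 2, and crt-1 and hsp-3 change sign.

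The genes most like xbp-1 and hsp-4 across the libraries were found by Pearson's correlation of log2 CPM over the 6 libraries, as a description, since all points share the same libraries and the genotypes are apart. For xbp-1 these were C25D7.5 (r = 0.9999), C33B4.4, Y92H12A.2, Y5H2A.4 and Y54G2A.11. For hsp-4 they were T04G9.7 (r = 0.999), T04F3.1, nasp-2, M02D8.5 and W05F2.3. Among the members, hsp-4 and xbp-1 had r = 0.959 with each other, and hsp-4 had r = -0.991 with pdi-2 and r = 0.551 with ckb-2. All of these r include WT replicate 2, the lowest library for xbp-1 and hsp-4 and the highest for pdi-2. They were not computed without it.

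Other genes that act in the ER were then counted, by function. Of 16 further chaperones and folding enzymes, 1 was called, beside 20.5% of all genes tested. This was manf-1, the worm relative of a secreted factor that resides in the ER. It fell from 145, 157 and 152 CPM in WT to 129, 136 and 128 CPM in the mutant (log2 difference -0.20, SE 0.05, edgeR adjusted p = 0.0353). The median log2 difference of the 16 was -0.12, beside 0.01 for all genes. Of the 16, none was called higher by edgeR, DESeq2 or limma-voom, and 0 were higher at an unadjusted p under 0.05. In the lower direction 7 had an unadjusted p under 0.05 in edgeR. DESeq2 called 3 lower, beside 15.4% of all genes tested, and limma-voom called 1. The largest difference was that of dnj-27, which did not pass (log2 difference -0.85, SE 0.23, edgeR adjusted p = 0.0518). Without WT replicate 2, 1 was called higher and 5 lower, beside 19.3% and 18.1% of all genes. The call of manf-1 was lost without WT replicate 1 or 3 or any of the mutant libraries (highest edgeR adjusted p 0.136).

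In ER-associated degradation (ERAD), which returns misfolded proteins to the cytosol for destruction, 15 of 18 listed genes were found. Of these, 1 was higher and 1 lower, beside 9.80% and 10.7% of all genes tested. The ubiquitin ligase genes hrdl-1, with 52.2, 47.5 and 50.2 CPM in WT and 65.7, 61.5 and 61.1 CPM in the mutant, and rnf-121, with 40.9, 39.99 and 42.1 CPM in WT and 36.7, 36.1 and 35.5 CPM in the mutant, went in opposite directions. Their log2 differences were 0.33 (SE 0.06, edgeR adjusted p = 0.0145) and -0.18 (SE 0.05, edgeR adjusted p = 0.0460), and the median of the list was -0.01. Without WT replicate 2, 1 was called higher and 4 lower, beside 19.3% and 18.1% of all genes. Neither hrdl-1 nor rnf-121 was called without WT replicate 3 or without any one mutant library, nor rnf-121 without WT replicate 1 (highest edgeR adjusted p 0.157).

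Of 16 genes found for entry into the ER, signal peptide removal and N-glycosylation, 6 were called lower, beside 10.7% of all genes tested, and 10 did not pass. Of the 16, 15 had a log2 difference below 0, with a median of -0.14 and a range of -0.25 to 0.00. The translocon-associated trap-2 had 464, 474 and 468 CPM in WT and 395, 402 and 382 CPM in the mutant (log2 difference -0.25, SE 0.04, edgeR adjusted p = 0.00898). The SEC63-like J-domain gene dnj-29 differed by -0.20 (edgeR adjusted p = 0.0225) and the signal peptidase subunit gene spcs-3 by -0.24 (edgeR adjusted p = 0.0229). The other 3 genes called lower were dad-1, spcs-1 and ostd-1. The count of 6 became 9 without WT replicate 2, 2 without WT replicate 1, 1 without WT replicate 3 or mutant replicate 2, and 0 without mutant replicate 1 or 3. Over all genes the count called lower also moved, from 1729 to 2972 without WT replicate 2. It was 1057 without WT replicate 1, 576 without WT replicate 3 and 631 without mutant replicate 2. Without mutant replicate 1 or 3 it was 330 or 381.

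Of 6 genes found that work with the IRE-1 and PEK-1 branches, 4 were called lower, beside 10.7% of all genes tested. These 4 are tied to eIF2alpha signalling or its targets. The others were rtcb-1, the RNA ligase that joins the ends of cut xbp-1 mRNA, and gcn-2, itself an eIF2alpha kinase gene. Their log2 differences were -0.10 and -0.01 (edgeR adjusted p = 0.238 and 0.945). All 6 had log2 differences below 0, with a median of -0.27. The gene asns-2, an asparagine synthetase, had 56.8, 106 and 61.9 CPM in WT and 34.0, 33.5 and 34.7 CPM in the mutant, and atf-4, the transcription factor whose translation rises when eIF2alpha is phosphorylated, had 102, 122 and 100 CPM in WT and 78.6, 87.2 and 88.9 CPM in the mutant. The log2 differences were -1.14 for asns-2 (SE 0.25, edgeR adjusted p = 0.0273), -0.34 for atf-4 (SE 0.09, 0.0492), -0.30 for gcn-1 (SE 0.05, 0.0139), a regulator of the eIF2alpha kinase GCN-2, and -0.25 for eif-2alpha itself (SE 0.05, 0.0231). The count of 4 was kept without WT replicate 2, where asns-2 differed by -0.80, was 2 without WT replicate 1, and was 0 or 1 without WT replicate 3 or any mutant library. Over all genes the count called lower was 2972 without WT replicate 2, 1057 without WT replicate 1, and 330 to 631 in the remaining fits.

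Among genes of phosphatidylcholine and lipid synthesis other than ckb-2, 2 of 15 tested were higher and 4 were lower, with a median log2 difference of -0.27. Over all genes tested the shares were 9.80% and 10.7%. Of the choline kinase family, cka-1 was higher (log2 difference 0.35, SE 0.06, edgeR adjusted p = 0.0129), ckc-1 was lower (log2 difference -0.74, SE 0.18, edgeR adjusted p = 0.0387), and ckb-1, ckb-4 and cka-2 did not pass, with log2 differences of -0.33, -0.34 and 0.17. The gene sbp-1, the worm SREBP, differed by 0.56 (SE 0.08, edgeR adjusted p = 0.00750). The next enzyme after choline kinase, the cytidylyl transferase gene pcyt-1, had 61.4, 83.4 and 60.9 CPM in WT and 39.3, 42.9 and 41.6 CPM in the mutant (log2 difference -0.73, SE 0.13, edgeR adjusted p = 0.0172). The S-adenosylmethionine synthetase gene sams-1 differed by -1.19 (edgeR adjusted p = 0.0281) and the desaturase gene fat-6 by -0.55 (edgeR adjusted p = 0.0288). Counts were 5 higher and 7 lower without WT replicate 2, beside 19.3% and 18.1% of all genes. They were 1 or 2 higher and 0 to 2 lower with any other library left out. In those fits 682 to 1157 of all genes were called higher and 330 to 1057 lower.

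**Figure D5:**
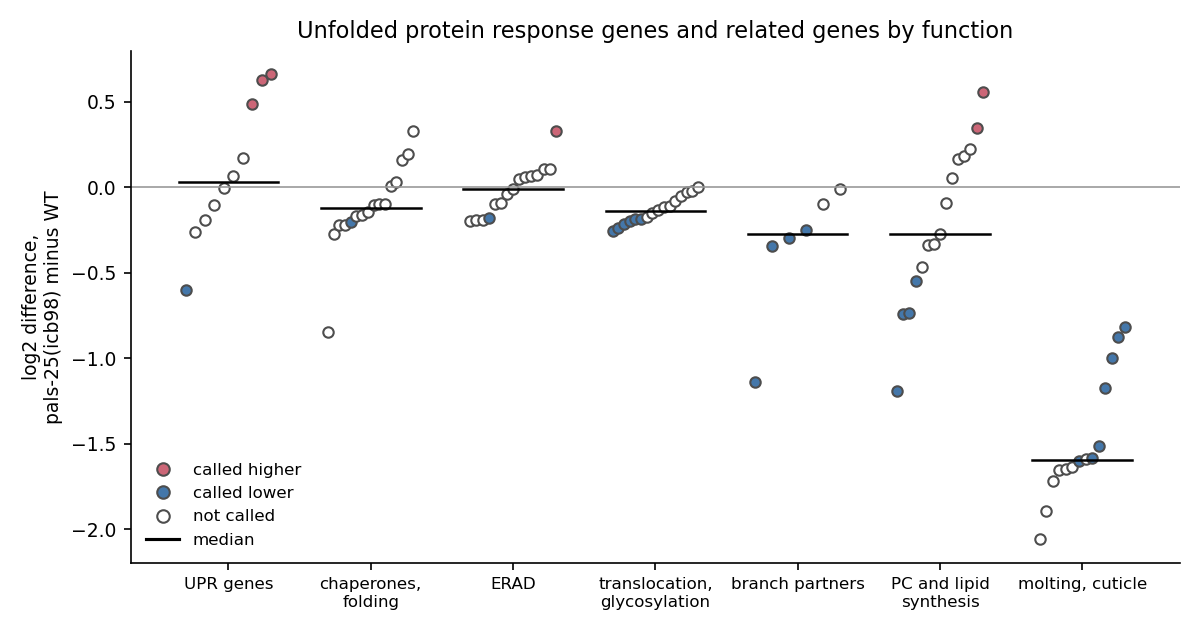
Log2 difference (pals-25(icb98) minus WT) of each tested gene by function, sorted within a group, with genes called higher in red, genes called lower in blue, genes not called open and the median of each group as a line. The medians are 0.03 for the 10 UPR genes, -0.14 for translocation and glycosylation and -1.60 for molting and cuticle genes.

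Genes that follow the molt and the approach to adulthood also differed between the genotypes. Of 14 molting and cuticle genes, 7 were called lower by edgeR and 14 by DESeq2, beside 10.7% and 15.4% of all genes tested. Among them were the collagen genes bli-1, sqt-1 and bli-2 (log2 differences -1.60, -0.997 and -1.59, edgeR adjusted p = 0.00567, 0.00578 and 0.00714). The summed level of the 14 was 6313 to 8904 CPM in WT, highest in replicate 2, and 2563 to 3693 CPM in the mutant. None of the 14 was at 0 in any library. Summed vitellogenins, the yolk proteins of the adult intestine, were at 2662 to 5520 CPM in WT, lowest in replicate 2, and at 11715 to 16418 CPM in the mutant. Of the 6 vitellogenin genes, 4 were called higher, beside 9.80% of all genes tested, and none was at 0. The 4 were vit-5, vit-6, vit-2 and vit-1 (log2 differences 2.53, 1.77, 2.33 and 0.57). With each library left out in turn, 3 to 9 of the molting and cuticle genes were called lower and 2 or 3 of the vitellogenins higher. In those fits 330 to 2972 of all genes were called lower and 682 to 3165 higher.

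Summed major sperm protein genes were at 2209 and 2287 CPM in WT replicates 1 and 3, at 601 CPM in WT replicate 2 and at 2591 to 3050 CPM in the mutant. Of 30 tested, 0 were called by edgeR, DESeq2 or limma-voom and 0 had an unadjusted p under 0.05 in edgeR. Without WT replicate 2, 25 were called higher, beside 19.3% of all genes. For the sums of these lists, WT replicate 2 and the mutant libraries lay on opposite sides of WT replicates 1 and 3. The same held for xbp-1, hsp-4, pdi-2, pdi-1, atf-6 and, by little, ire-1. For ckb-2, pek-1 and crt-1, WT replicate 2 lay on the same side as the mutant libraries. For hsp-3 the mutant libraries lay close to WT replicates 1 and 3. The part of molting and larval age in the differences of the UPR genes was not tested.

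Some tissue markers differed too, beside 20.5% of all genes tested that were called in either direction. Of 4 epidermis markers, rol-6 and lon-3 were called lower and col-12 higher (log2 differences -0.87, -1.40 and 1.54), while dpy-7 did not pass (-1.64), and rol-6 and dpy-7 are also in the molting list. Their summed level was 1312 to 1552 CPM in WT and 1777 to 1965 CPM in the mutant. Only col-12 was higher in the mutant, and the median log2 difference of the 4 was -1.14. Of 4 intestine markers ifb-2 was called higher (0.60), with a summed level of 926 to 1073 CPM in WT and 1194 to 1276 CPM in the mutant, and of 3 body wall muscle markers unc-54 was called higher (0.19), with 11429 to 11564 CPM in WT and 12156 to 12915 CPM in the mutant. With 6 libraries, no pharynx, neuron or germline marker was called by edgeR, DESeq2 or limma-voom. Of these, 1 in neurons had an unadjusted p under 0.05 in edgeR. Without WT replicate 2, 2 of 4 neuron markers were called higher, and of 4 germline markers 1 was called higher and 1 lower. Calls were 0 in the pharynx, and 2 intestine markers were called higher. The shares of all genes were then 19.3% higher and 18.1% lower. The part of tissue makeup in the differences of the UPR genes was not tested.

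The abu genes, named as activated in blocked UPR because they were first seen to rise in animals that cannot raise the UPR, were higher in the mutant. Of 14 genes, 11 were called higher and 1 lower, beside 9.80% and 10.7% of all genes tested, with a median log2 difference of 1.96. Without WT replicate 2, 11 were called higher too, beside 19.3% of all genes. Their summed level was 1348, 691 and 1254 CPM in WT and 2535, 2081 and 2414 CPM in the mutant. As for the vitellogenins, WT replicate 2 was lowest and the mutant highest, and the part of molting and larval age in this rise was not tested. The gene abu-2 had 3.98, 1.91 and 3.32 CPM in WT and 65.2, 52.5 and 55.8 CPM in the mutant (log2 difference 4.23, SE 0.28, edgeR adjusted p = 0.000524), and abu-4 differed by 4.21 (SE 0.28, edgeR adjusted p = 0.000574). The gene abu-5 had 0, 0 and 0.148 CPM in WT and 28.9, 23.4 and 24.04 CPM in the mutant. The member that went the other way was abu-13, with a log2 difference of -0.97 (SE 0.22, edgeR adjusted p = 0.0317), a call lost with any library but WT replicate 2 left out (highest edgeR adjusted p 0.117). Several abu genes are near-identical copies, whose reads were divided by the authors' estimation.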

How the data were processed

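The authors estimated transcript abundance with kallisto against the WS235 transcriptome of WormBase and tested the genotypes with sleuth (Wald test, versions not given in the sources used here). The values deposited by the authors are estimated counts per transcript, which kallisto made by dividing reads among annotated transcripts, with lengths and effective lengths. Sleuth was not run, since it needs repeated estimates that were not used here.

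The 35862 transcripts were summed to 22010 genes by sequence name, of which 99.2% matched the Ensembl WBcel235 annotation, and totals were rounded. The test was that of edgeR 4.0.16 (R 4.3.3), a robust quasi-likelihood F-test with TMM scaling, group as the sole term and filterByExpr at a minimum count of 10, with a threshold of 0.05 after Benjamini-Hochberg adjustment. The SE is that implied by F. CPM uses TMM-scaled totals, and TPM was computed here from estimated counts and effective lengths. Shares used two-sided exact permutation tests. The procedure was tested on simulated data with the same dispersion for every gene, differences larger than those of the members and no library set apart. That run does not measure how the procedure performs with a library like WT replicate 2 or with differences as small as those here. Alternatives were DESeq2 1.42.0, limma-voom (limma 3.58.1), RLE and upper-quartile scaling, no filter or a minimum count of 50, limma on log2(TPM + 1) and log2(TPM + 0.1), effective-length offsets, a replicate block, and each library left out. Those for the context lists and the BiP share were added after seeing the data. The members and lists were chosen with earlier results of these data known.

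Named were all 10 members, up to 3 genes called in each direction per list by smallest adjusted p (all where 4 or fewer were called), the 5 genes most like hsp-4 and xbp-1, and chil-27 and pals-25 to check the genotype (pals-25 itself had 2.04 ± 0.377 CPM in WT and 4.03 ± 0.232 in the mutant). The genes dpy-18 and phy-2, and the list genes named without a value, were added after values were seen. With 3 libraries per group, the edgeR p-values weigh a difference against the spread between these samples. That spread was estimated with information shared over all genes.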

Additional observations from a re-analysis of the deposited data

How the results depend on the processing

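The counts of members called moved with the libraries used. With each library left out in turn, 1 to 5 members were called higher (3 with all libraries) and 0 to 2 lower (1 with all), and over all genes 682 to 3165 were called higher (1584 with all) and 330 to 2972 lower (1729 with all), the highest counts being those without WT replicate 2. The log2 difference of crt-1 ran from -0.073 to 0.11 with a library left out, and was above 0 there only without WT replicate 2. Under the other 10 alternatives each member kept its side of the threshold except ckb-2, and its direction except crt-1, which went from -0.0046 to between 0.0009 and 0.0050 with DESeq2, RLE scaling, limma-voom and the replicate block. The gene ckb-2 lost its call under upper-quartile scaling (adjusted p = 0.0625 in edgeR) and on log2(TPM + 1) and log2(TPM + 0.1) (0.0553 and 0.0569 in limma). With a replicate block, genes called lower fell to 1010, and R74.3a, R74.3b and F43E2.8a.2 lost their calls (edgeR adjusted p = 0.107, 0.0764 and 0.0836), as did several list genes. Same-numbered libraries correlated at r = 0.0778, 0.247 and 0.129 in their deviations from the group means. For WT libraries 2 and 3 the same-numbered mutant library was the best match, while WT library 1 correlated better with mutant library 3 (0.149). These values do not settle whether the numbers are pairs, and the main fit used no block. No scaling moved the median of all genes by over 0.1 on the log2 scale. The planned search of promoter motifs was not run here. All values are limited by 3 libraries per genotype.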
